A study of Mus musculus with 4 samples.

Results

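The 10 genes described here mark mesothelium and simple epithelium: the uroplakin genes Upk3b and Upk1b, the keratin genes Krt7, Krt8, Krt18, and Krt19, the membrane protein genes Tm4sf5, Tmem151a, and Lrrn4, and the transcription factor gene Myrf. They were chosen by name, with earlier results of these data known, as 10 of the 31053 genes in the deposited matrices. All of them had at least 1 UMI in each library. The study had used Upk3b, Tmem151a, and Tm4sf5 to describe progenitor-like cells. Counts of members set against all genes are therefore a description and not a test. The study asked whether mouse embryonic stem cells (ESCs) can be turned into somatic cells of the fetal testis, and compared such cells with cells of embryonic gonads by single-cell RNA sequencing (scRNA-seq), in which each transcript molecule carries the barcode of its cell and a unique molecular identifier (UMI). There were 4 libraries, 1 for each condition, and their titles give them as XY, although the protocol text of the labels calls the gonads female. The gonads of the embryonic libraries (E10.5 to E12.5, a day apart) came from the ICR strain, with no transgene given. Mesenchyme dorsal to the gonad was part of the E10.5 tissue, and the mesonephros had been taken off at the later stages. The library of day 6 of culture (D6) came from the ESC line N271S9C, which the labels give as C57BL/6J and the paper as a cross of 129X1/SvJ with C57BL/6J. This single line carries a Sox9-2A-CGFP reporter and an Nr5a1-hCD271 reporter (the label spells it Nr5a1-hCD27a), a human surface protein driven by Nr5a1, a gene of gonadal somatic cells, and the D6 cells were enriched for that protein on magnetic beads. Before that, the aggregates had been exposed in turn to CHIR99021, BMP4, and EGF, then to retinoic acid, SHH, PD0325901, EGF, and BMP4, and then to BMP4, FGF9, and IWR1. Reagent kits were of version 2 in vivo and version 3 for D6, so that kit, strain, culture, and sorting cannot be told apart from origin.

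Mesothelium is the flat epithelium that lines the body cavity and covers the organs within it. The gonad arises where this coelomic epithelium thickens along the mesonephros, and cells that leave it become supporting cells, which include Sertoli cells, and interstitial cells. Upk3b and Upk1b encode membrane proteins of the uroplakin family, and Upk3b is among the common markers of mesothelium. Krt8 pairs with Krt18 in the intermediate filaments of most simple epithelia, and Krt7 and Krt19 are found in a narrower set of ducts and linings. Tm4sf5 belongs to a family of tetraspanin-like membrane proteins, Tmem151a is a transmembrane protein, Lrrn4 is a leucine-rich repeat neuronal membrane protein used as a mesothelial marker, and Myrf is a membrane-anchored transcription factor best known from myelin formation. Lhx9 encodes a homeodomain factor of the gonadal surface epithelium and its mesenchymal progeny. Sox9 marks supporting cells of the testis and Pdgfra marks interstitial and other mesenchymal cells.

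The members lie on 6 chromosomes of GRCm38. Krt7, Krt8, and Krt18 lie in the keratin gene cluster of chromosome 15, where Krt8 (chr15:101996698-102004482) is on the minus strand and Krt18 (chr15:102028180-102032027) on the plus strand, and 23.7 kb lie between their starts. Upk3b is at chr5:136038496-136046487 and Tm4sf5 at chr11:70505244-70511178, both on the plus strand. The bases upstream of the start are shown for 4 members. Upk3b is given with Tm4sf5, the member most often found in Upk3b-positive cells at E11.5 and E12.5. Krt8 and Krt18 are given because their UMIs were divided differently between some cell classes in vivo. They are RefSeq sequences of GRCm38.p6, written 5′ to 3′ on the strand of the gene, with capitals for a match to 1 of 7 short motifs.
Upk3b: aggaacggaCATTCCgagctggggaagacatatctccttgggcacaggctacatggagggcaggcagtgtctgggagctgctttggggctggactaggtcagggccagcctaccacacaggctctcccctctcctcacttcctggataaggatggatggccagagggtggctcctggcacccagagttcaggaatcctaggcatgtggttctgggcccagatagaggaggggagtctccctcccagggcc
Tm4sf5: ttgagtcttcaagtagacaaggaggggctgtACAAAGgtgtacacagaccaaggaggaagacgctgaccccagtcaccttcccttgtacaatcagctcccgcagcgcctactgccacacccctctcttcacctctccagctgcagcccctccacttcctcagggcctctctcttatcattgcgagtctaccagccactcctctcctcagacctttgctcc
Krt8: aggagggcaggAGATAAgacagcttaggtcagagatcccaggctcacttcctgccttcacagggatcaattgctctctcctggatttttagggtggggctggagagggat
Krt18: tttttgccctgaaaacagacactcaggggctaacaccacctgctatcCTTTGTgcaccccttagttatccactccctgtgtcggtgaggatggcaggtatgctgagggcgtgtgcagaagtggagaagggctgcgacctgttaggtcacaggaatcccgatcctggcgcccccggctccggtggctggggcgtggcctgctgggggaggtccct
These windows span chr5:136038246-136038495, chr11:70505024-70505243, chr15:102004483-102004592, and chr15:102027966-102028179. Each begins 250 bases before the RefSeq start and is printed only up to the gene start of GENCODE. For Tm4sf5, Krt8, and Krt18 that start lies 30, 140, and 36 bases before the RefSeq one, so that 220, 110, and 214 bases are printed. Matches were sought on both strands in the full 250 bases before the RefSeq start of 32851 promoters. Among these were those of 7 members (none was held for Upk1b, Krt19, or Myrf). In Upk3b the capitals are CATTCC, the reverse complement of GGAATG, which TEAD factors bind, and this motif was in 2 of the 7 members and in 12.6% of all promoters. ACAAAG, a SOX motif, was in Tm4sf5 and, as CTTTGT, in Krt18, and in 16.5% of all promoters. A motif of GATA factors, AGATAA, was in Krt8 and in 9.99% of all promoters. GGGCGG, the motif of SP factors, was in 2 members and 32.7% of promoters, and none of the 7 held TATAAA (12.4% of promoters), AAGGTCA (4.08%), or TAATTA (4.84%).

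Within the gene and mitochondrial limits of the study, 3837, 2101, 2764, and 2285 cells were kept, with 32508523, 24625441, 34173977, and 11906360 UMIs and medians of 8167, 11926, 10946, and 4607 UMIs per cell. Here and in what follows, 4 values in a row stand for the E10.5, E11.5, E12.5, and D6 libraries in that order. Because there is 1 library per condition, no test between conditions was possible, cell classes were compared within each library with no test over libraries, and a difference is given as a ratio, with 2-fold set as the limit for calling a gene higher or lower. The 95% intervals in brackets are exact and cover counting error only. A level is the number of UMIs of a gene per 1000000 UMIs, summed over cells, and is written as CPM (counts of UMIs on that scale). Since UMIs count transcript ends, levels were not divided by length. The in vivo libraries shared between 10 and 19 barcodes with each other (7 to 15 among retained cells) and none with D6. By their markers, 449 cells of E12.5 and 193 of E11.5 were germ cells, 24 cells of E10.5 were endoderm and 42 were mesonephric. Fewer cells of a type and less RNA per cell cannot be told apart in a library's level.

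Upk3b, the mesothelial uroplakin, was found in every library. Its level was 21.3 [19.7, 22.9], 39.5 [37.0, 42.0], 27.8 [26.1, 29.7], and 49.1 [45.2, 53.3] CPM, and it was found in 8.11, 14.7, 9.30, and 8.14% of cells. A cell with Upk3b held on average 2.23 UMIs at E10.5 and between 3.15 and 3.70 in the other libraries, with up to 16 in 1 cell. Neighbouring stages differed by less than 2-fold, although the log2 ratio of E11.5 to E10.5, 0.89, was 1.11 with no filter on cells, 1.04 without cells with markers of other types, and 1.02 as a mean over cells, which is past that limit. When cells were thinned to 2000 UMIs each, which left out 6, 209, 0, and 16 shallower cells, the shares were 3.68, 6.77, 3.98, and 4.23%. In endothelium, which should lack the gene, Upk3b was found in 1.69% of the 59 cells of E10.5 (their median was 10877 UMIs) and 4.26% of the 47 of E11.5 (17348), below the share in the whole libraries although these cells were deeper. At E12.5 it was in 0 of 34 endothelial cells (median 13886), which allows a share of up to 8.82%, and the 15 cells of D6 allow 20.0% and say little.

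**Figure D1:**
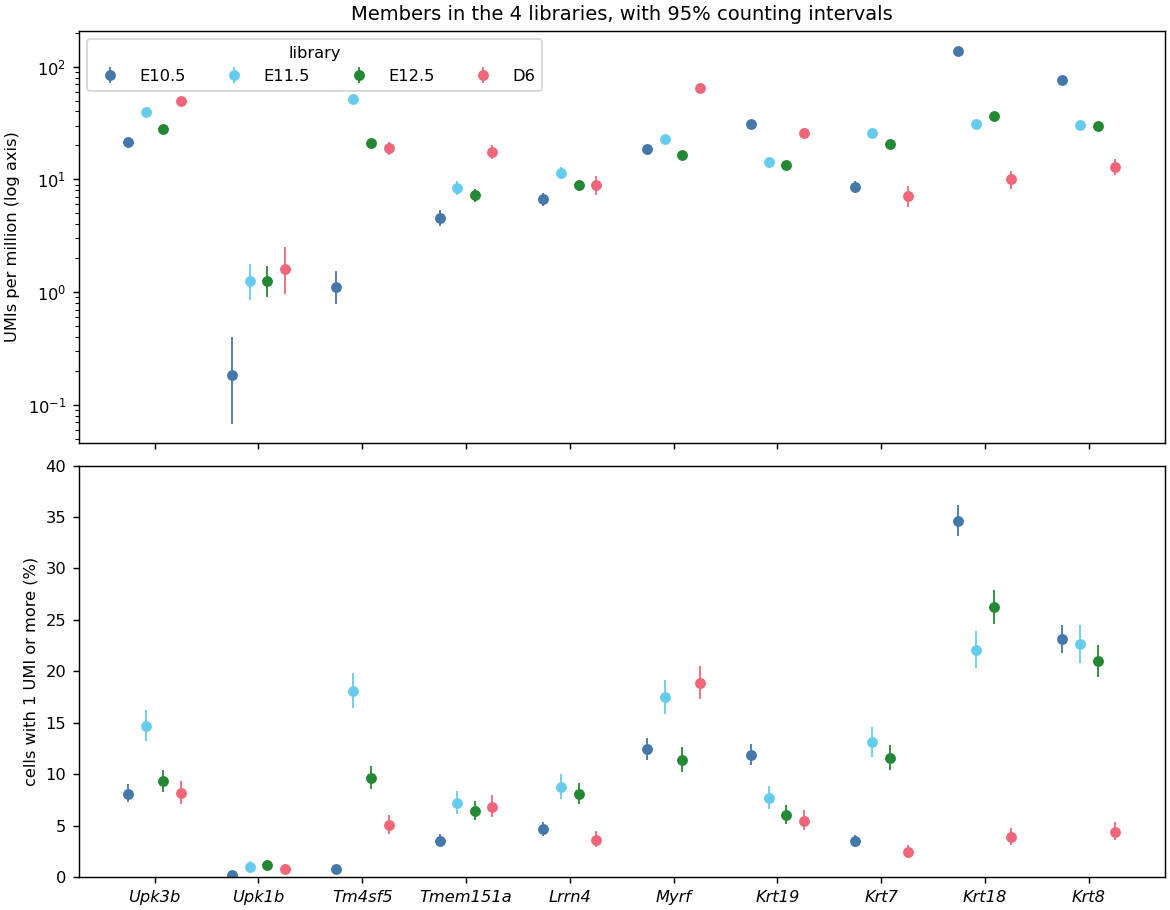
Level of each member in CPM (log axis) and share of cells with at least 1 UMI in the 4 libraries, with 95% intervals for counting error. Tm4sf5 stands at 1.11 CPM at E10.5 and at 51.7 at E11.5, Krt18 is highest at E10.5, and Myrf is highest at D6.

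Upk1b, the other uroplakin, was near the limit of detection, with 6, 31, 43, and 19 UMIs in the 4 libraries and shares of 0.156, 1.00, 1.16, and 0.788%. The other uroplakin genes were sparse too. Upk1a had 49, 11, 14, and 16 UMIs, Upk3a had 4 UMIs at E10.5 and 0 elsewhere, Upk2 had 1, 13, 63, and 0, and Upk3bl had 78, 5, 9, and 2.

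Tm4sf5 differed most between stages. It had 1.11 [0.776, 1.53], 51.7 [48.9, 54.6], 21.2 [19.6, 22.8], and 19.0 [16.6, 21.6] CPM and was found in 0.756, 18.1, 9.62, and 5.03% of cells. The log2 ratio of E11.5 to E10.5 was 5.54 [5.07, 6.06], a 46.6-fold higher level, and E12.5 was 2.44-fold lower than E11.5. It was the member with the highest level at E11.5 and the last but one at E10.5. In endothelium it was in 0 of 59 cells at E10.5 (up to 5.08%) and in 2.13% at E11.5. The mix of cells differed between these stages, with Lhx9 in 4.59% of cells at E10.5 and 47.2% at E11.5. Tm4sf5 had 13.2 and 96.4 CPM at these stages in cells with Lhx9, and 0.454 and 3.62 in cells without it. The step within each class was thus smaller than that between the whole libraries.

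Tmem151a, Lrrn4, and Myrf were found in all libraries. Tmem151a had 4.55, 8.41, 7.23, and 17.6 CPM and Lrrn4 had 6.64, 11.45, 8.87, and 8.90. Myrf had 18.5 [17.1, 20.1], 22.7 [20.9, 24.7], 16.4 [15.0, 17.8], and 65.3 [60.8, 70.0], and was the most abundant member at D6. Its share at D6, 18.9% of cells, was the highest of any member there, and with equal depth it was 9.61% against 2.64% at E12.5.

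The keratins stood in another order. Krt18 had 136.6 CPM [132.6, 140.7] at E10.5, where it was in 34.6% of cells, and 30.8 [28.7, 33.1], 36.8 [34.8, 38.9], and 9.99 [8.28, 12.0] in the other libraries. Krt8 had 76.1 [73.2, 79.2], 30.6 [28.4, 32.8], 29.5 [27.7, 31.4], and 12.9 [10.97, 15.1]. Krt19 had 30.8, 14.3, 13.3, and 25.5, and Krt7 had 8.55, 25.9, 20.6, and 7.06. Krt8 and Krt18 were thus highest at E10.5 and lowest at D6, Krt7 was highest at E11.5, and Krt19 was at D6 nearer to E10.5 than to the stages between. In endothelium at E10.5, Krt18 was in 10.2% of cells and Krt8, Krt19, and Myrf in 1.69% each.

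In the order of levels at E10.5, Krt18, Krt8, and Krt19 came first, followed by Upk3b and Myrf and by Krt7 and Lrrn4, and the intervals within each of these pairs overlapped. At E11.5 Tm4sf5 and Upk3b led, followed by Krt18 and Krt8 and by Krt7 and Myrf, again as pairs with overlapping intervals. At E12.5 Krt18 led, Krt8 and Upk3b overlapped, and so did Tm4sf5 and Krt7. At D6 Myrf, Upk3b, and Krt19 led, and Krt8, Krt18, Lrrn4, and Krt7 each overlapped with the next. Upk1b came last in all 4 libraries.

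Between E10.5 and E11.5, 3 members were higher (Upk1b, Krt7, and Tm4sf5) and 3 lower (Krt8, Krt18, and Krt19) by 2-fold or more, where 16.9% of all genes were higher and 10.7% lower. The log2 ratios of E11.5 to E10.5 were 2.77 [1.49, 4.32] for Upk1b, 1.60 [1.40, 1.81] for Krt7, -1.32 for Krt8, -2.15 for Krt18, and -1.10 for Krt19. The median over the 10 members was 0.84, and over all genes -0.02. Between E11.5 and E12.5, no member was higher (4.93% of all genes were) and Tm4sf5 alone was lower (4.86%). Between E12.5 and D6, Tmem151a (log2 ratio of D6 to E12.5 1.28) and Myrf (2.00 [1.84, 2.16]) were higher, where 29.6% of all genes were, and Krt7 (-1.55), Krt8 (-1.19), and Krt18 (-1.88) were lower, where 12.1% were. The median of all genes was 0.35 in that comparison. With a TMM scaling, which takes 0.36 away, 1 member was higher (Myrf, 1.63) and 3 were lower. Tmem151a was then at 0.92, and 5854 of 14782 genes were called in either direction. With a median-of-ratios scaling Tmem151a was at 0.78, and the same numbers of members were called, where 5957 of 14782 genes were.

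At E10.5, part of the keratin UMIs lay in cells with genes of other epithelia. Leaving germ cells aside, 305 cells had a UMI of Epcam or Cdh1, genes of epithelial cell junctions. Krt7 was in 30.2% of these cells and in 1.16% of the other 3523, and 77.0% of its UMIs were in them. Krt8, Krt18, and Krt19 were in 60.3, 68.2, and 36.1% of these cells, against 20.0, 31.8, and 9.82% of the others. Upk3b was the other way round, in 4.92% of the cells with Epcam or Cdh1 and in 8.40% of the others. At E11.5, by contrast, the 138 such cells held Upk3b in 32.6% and Lhx9 in 67.4%. In the small endoderm class of E10.5 (24 cells), Krt7 was in 70.8%, Krt19 in 79.2%, and Krt8 and Krt18 in 95.8% of cells each, and in the 42 mesonephric cells Krt8 was in 64.3% and Krt7 in 21.4%. With all cells with Epcam or Cdh1 left out, germ cells with such a UMI included, 1787 cells of E11.5 and 3523 of E10.5 remained. In this setting, added after the data had been seen, the log2 ratio of E11.5 to E10.5 was 3.63 for Krt7 and -0.80 for Krt8. It was -1.85 for Krt18 and -0.43 for Krt19, so that Krt8 and Krt19 were no longer called. When cells with markers of other types were left out instead, Krt8 was at -1.02 and still called, and Krt19 was at -0.83 and not called.

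Lrrn4 was also found in germ cells. It was in 15.0% of 193 germ cells at E11.5 (median 17221 UMIs) and in 18.3% of 449 at E12.5 (median 18639), against 8.47 and 6.20% of cells without a class. Its level at E11.5 was 10.95 CPM [7.54, 15.4] in germ cells and 12.2 [10.8, 13.8] in cells without a class, intervals that overlap. At E12.5 it was 10.7 CPM [8.62, 13.1] in germ cells and 8.44 [7.34, 9.66] in cells without a class, and germ cells held 30.4% of its UMIs there. With equal depth, the shares were 1.09% of germ cells and 1.78% of cells without a class at E11.5, and 2.23 and 0.791% at E12.5.

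The members were then compared between cells with and without a UMI of Lhx9, of which there were 176 and 3661, 991 and 1110, 1297 and 1467, and 415 and 1870 cells. Upk3b was found in 35.8, 27.7, 18.5, and 34.2% of Lhx9-positive and in 6.77, 2.97, 1.16, and 2.35% of Lhx9-negative cells. Its level was 6.09-, 12.4-, 28.1-, and 20.3-fold higher in Lhx9-positive cells (log2 ratios 2.61, 3.63, 4.81, and 4.34). It had 102.8, 70.9, 60.3, and 196.5 CPM in Lhx9-positive and 16.9, 5.72, 2.15, and 9.69 in Lhx9-negative cells. From E10.5 to E12.5 the level thus fell in both classes, and the ratio rose because it fell further in Lhx9-negative cells. With equal depth, the classes were made anew from the thinned counts (84, 497, 613, and 210 Lhx9-positive cells), and these ratios were 3.40, 1.71, 2.61, and 2.94. As means over cells the ratio at E11.5 was 2.28. The order of the libraries thus differed between these settings. The classes had median depths of 9646.5 and 8107, 12701 and 10922, 10218 and 11580, and 5560 and 4496 UMIs. Seen from the other side, 20.3, 89.3, 93.4, and 76.3% of Upk3b-positive cells had Lhx9, where Lhx9 was in 4.59, 47.2, 46.9, and 18.2% of all cells. With equal depth, 16.3, 56.3, 61.8, and 45.8% of Upk3b-positive cells had Lhx9, where it was in 2.19, 26.3, 22.2, and 9.26% of all thinned cells.

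**Figure D2:**
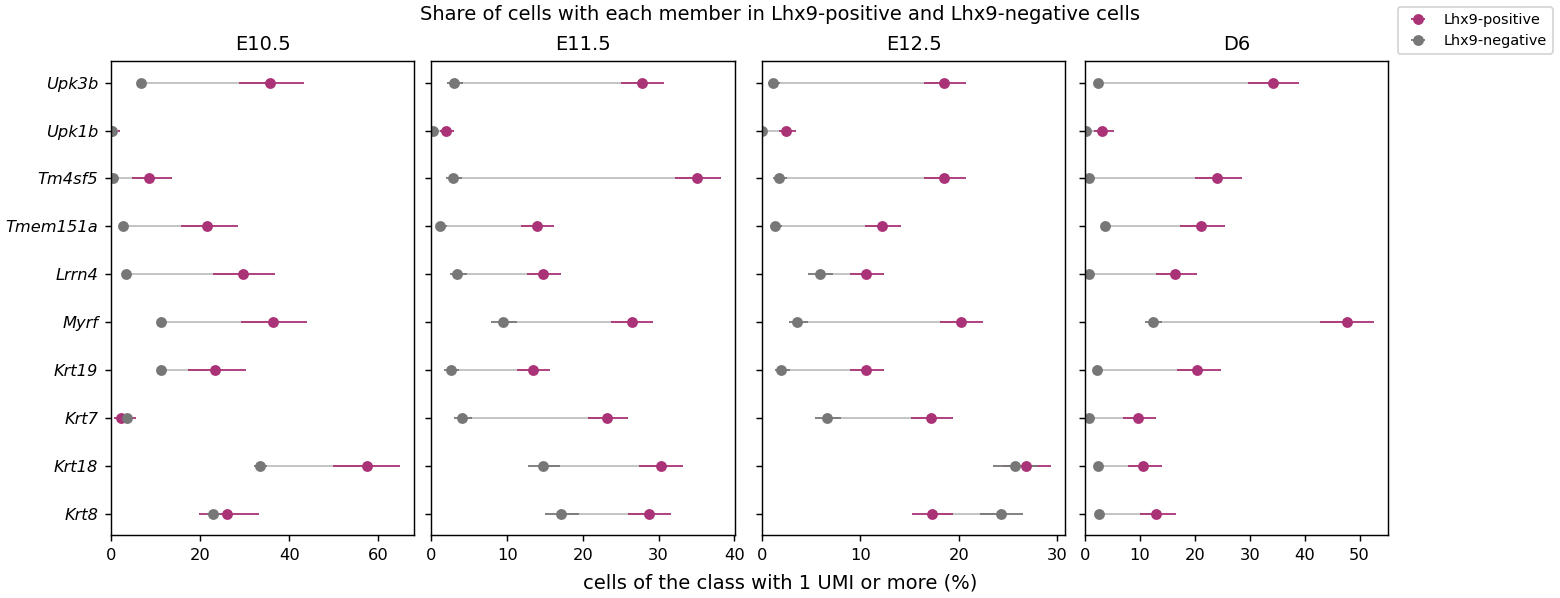
Share of Lhx9-positive and Lhx9-negative cells with at least 1 UMI of each member, by library, with 95% intervals. Upk3b, Tm4sf5, and Tmem151a are in more of the Lhx9-positive cells in all 4 libraries, whereas Krt8 is in 17.3% of Lhx9-positive and 24.3% of Lhx9-negative cells at E12.5.

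Tm4sf5 had log2 ratios of Lhx9-positive to Lhx9-negative cells between 4.72 and 4.87 in the 4 libraries. With equal depth its ratios were 2.31 (E11.5), 2.53 (E12.5), and 3.61 (D6), and it had too few UMIs at E10.5. At E11.5 it was in 35.1% of Lhx9-positive cells and 2.88% of the others. At D6 these shares were 24.1 and 0.802%. Tmem151a had log2 ratios of 2.97, 3.48, 3.69, and 2.77, and Myrf had 1.67, 1.82, 3.45, and 2.44, so that both were called in every library. Myrf was in 47.7% of Lhx9-positive cells at D6, more than any other member. Lrrn4 had 3.12, 2.33, 1.38, and 4.10, and its value at E12.5 was 3.37 when cells with markers of germ cells and other types were left out. Upk1b had 29 UMIs in Lhx9-positive and 2 in Lhx9-negative cells at E11.5 and 43 against 0 at E12.5, which is at least 18.1-fold higher with the 0 set at 3 counts over the class.

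The keratins divided. Krt19 had log2 ratios of Lhx9-positive to Lhx9-negative cells of 0.48, 2.40, 2.70, and 2.99 from E10.5 to D6. Krt7 had -1.56 [-3.19, -0.32] at E10.5, with 5 UMIs in the Lhx9-positive cells, and 2.68, 2.48, and 3.68 in the other libraries. With cells that had Epcam or Cdh1 left out, the ratio at E10.5 was 0.27 for Krt7 and 1.07 for Krt19, which was then past 2-fold. Krt18 had 0.33, 0.93, 0.53, and 1.93 and Krt8 had -0.81, 0.46, -0.62, and 2.13, so that neither was called in vivo and both were at D6. Krt8 did pass the limit as lower in Lhx9-positive cells at E12.5 (-1.34) without cells with markers of other types, and at E10.5 with equal depth (-1.09) or as means over cells (-1.03). At E12.5, 48.0% of Krt18-positive cells had Lhx9, near the 46.9% of all cells. The share was below that in Krt8-positive cells (38.6%) and above it in cells with Tm4sf5 (90.2%).

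In all, 5 of the 9 members tested (at least 20 UMIs in both classes summed) were higher in Lhx9-positive cells of E10.5, and 8 of 10, 8 of 10, and 9 of 9 in the later libraries, where 7.10, 4.98, 10.0, and 3.28% of all genes were. Krt7 at E10.5 was the only member lower by 2-fold (8.16% of all genes were). No member was lower in the later libraries, where 1525 of 13257, 1960 of 13725, and 909 of 12667 genes (7.18% at D6) were. The medians over the members tested were 1.67, 2.54, 3.07, and 2.99 on the log2 scale, and over all genes between -0.06 and 0.05. With equal depth and classes made from the thinned counts, 4 of 8, 7 of 9, 7 of 9, and 9 of 9 members tested were higher, where 21.4, 2.54, 3.34, and 3.36% of all genes were, and Krt8 was lower at E10.5 (7.01% of all genes).

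Sox9-positive cells without Pdgfra were compared with Pdgfra-positive cells without Sox9. There were 568 and 699, 549 and 414, 646 and 844, and 207 and 519 of them, and 218, 219, 259, and 85 cells with both were left out. At E10.5 both classes were low in supporting cell genes, of which 6 summed to 18.8 CPM in Sox9-positive and 23.9 in Pdgfra-positive cells, and 8 of 9 junction and splicing genes tested were higher in the former, where 4.30% of all genes were. In the later libraries the same sums were 1602, 4722, and 844 in Sox9-positive and 62.8, 66.2, and 74.0 in Pdgfra-positive cells. Lhx9 was in 33.0, 16.9, and 17.9% of the former and 72.7, 74.3, and 19.7% of the latter.

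At E12.5, members of the mesothelial kind were lower and Krt8 and Krt18 higher in Sox9-positive cells. Upk3b had 13.2 CPM in Sox9-positive and 37.3 in Pdgfra-positive cells (log2 ratio -1.497 [-1.84, -1.17]), and Tm4sf5 (-1.56), Tmem151a (-1.88), Myrf (-1.37), and Lrrn4 (-1.23) were lower too. Krt8 had 80.4 against 17.97 (2.16 [1.91, 2.42]) and was in 46.0% of Sox9-positive and 13.0% of Pdgfra-positive cells. Krt18 had 61.2 against 29.9 (1.03 [0.81, 1.25]), whereas Krt7 (-0.20) and Krt19 (-0.76) were not called. Krt19 was past the limit as lower in cells with Gata4 or Nr5a1 (-2.72) and with 2 UMIs for a positive cell (-2.93). In these settings 3000 of 11797 and 3197 of 11554 genes were called. Krt18 was no longer called with no filter on cells (0.88), in cells with Gata4 or Nr5a1 (0.89), or with cells positive for both genes counted in both classes (0.80). Thus 2 of 9 members tested were higher, where 12.4% of all genes were, and 5 were lower, where 12.1% were. After thinning, of these members Krt7, Krt8, and Krt18 alone reached 20 UMIs, and Krt8 (2.13) and Krt18 (1.19) were still called.

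**Figure D3:**
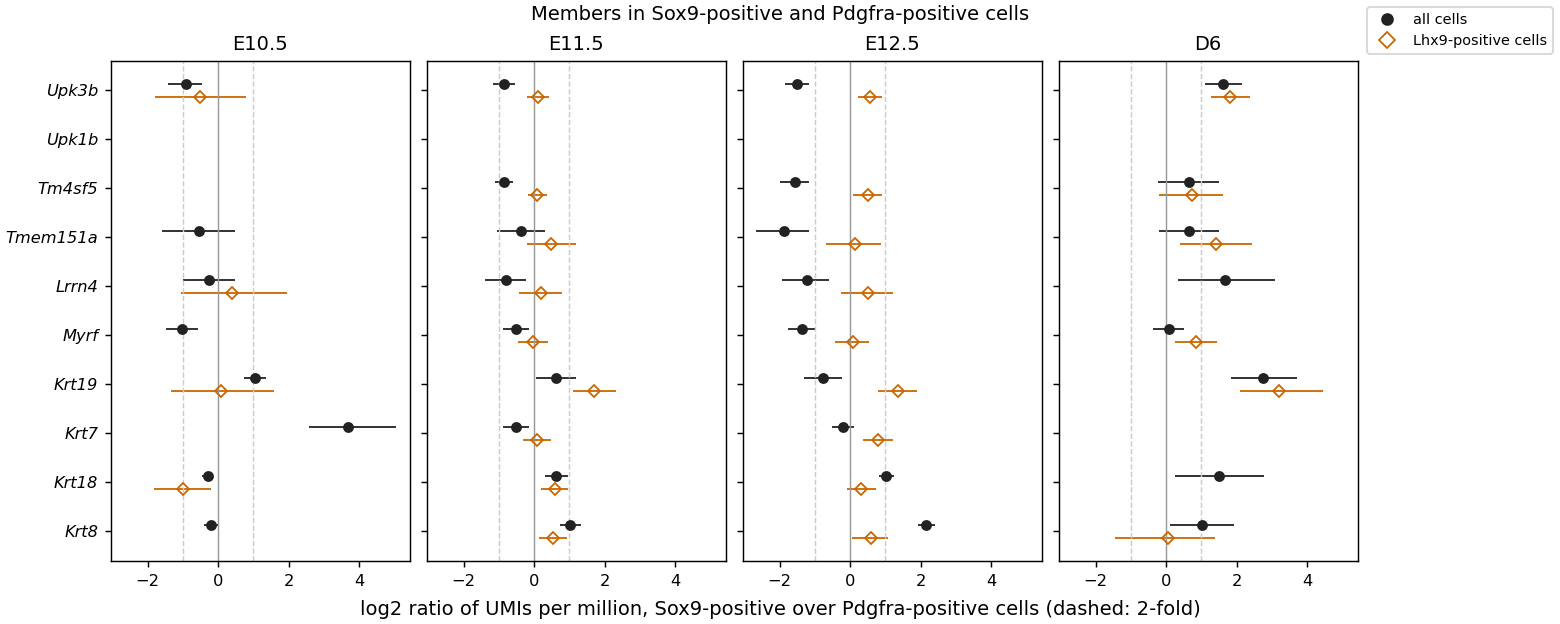
Log2 ratio of the level in Sox9-positive to that in Pdgfra-positive cells for members with at least 20 UMIs, in all cells (black circles) and in Lhx9-positive cells alone (orange diamonds), with 95% intervals and dashed lines at 2-fold. At E12.5 Upk3b is at -1.497 in all cells and at 0.57 in Lhx9-positive cells.

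Since Lhx9 differed between the classes, the ratios were also taken within Lhx9-positive and Lhx9-negative cells, a setting added after the data had been seen. In Lhx9-positive cells of E12.5 (109 with Sox9 and 627 with Pdgfra), Upk3b was at 0.57 [0.22, 0.90], Tm4sf5 at 0.50, Tmem151a at 0.13, Myrf at 0.07, and Lrrn4 at 0.52 on the log2 scale, so that none of the 5 was lower and none was called. Krt19 was at 1.35 [0.79, 1.89] there, and Krt8 and Krt18 at 0.59 and 0.32. In Lhx9-negative cells (537 and 217), Krt8 had 91.0 CPM with Sox9 and 5.64 with Pdgfra (log2 ratio 4.01), and Krt18 had 64.4 against 4.23 (3.93). Krt7 had 12.6 against 1.88 CPM there (2.75 [1.33, 4.66], from 76 and 4 UMIs) and was at 0.80 in Lhx9-positive cells. Krt7, Krt8, and Krt18 thus passed 2-fold in Lhx9-negative but not in Lhx9-positive cells. Calls over all genes were also fewer in Lhx9-positive cells, 1127 of 10989 genes tested. They were 2968 of 11061 in Lhx9-negative cells and 2998 of 12257 without the split.

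At E11.5 only Krt8 was called (49.2 against 24.1 CPM, log2 ratio 1.03 [0.73, 1.34]), 1 of 9 members tested, where 11.4% of all genes were higher, and no member was lower (7.95%). Upk3b was at -0.85 and Tm4sf5 at -0.86. In cells with Gata4 or Nr5a1, Krt8 was at 0.78 and not called, and Upk3b (-1.19), Tm4sf5 (-1.43), and Lrrn4 (-1.48) were lower. With 2 UMIs for a positive cell, Tm4sf5 (-1.79), Tmem151a (-1.44), and Lrrn4 (-1.64) were lower as well as Krt8 higher. Within Lhx9-negative cells Krt8 was at 2.73 and Krt18 at 2.47, and within Lhx9-positive cells Krt19 was at 1.70 and Upk3b at 0.11. At E10.5, Krt7 (14.6 against 1.14 CPM, log2 ratio 3.69) and Krt19 (45.6 against 22.2, 1.04) were higher in Sox9-positive cells, where 4.30% of all genes were, and Myrf (11.2 against 22.6, -1.02) was lower, where 1.88% were. Krt19 was at -0.24 without the cells with Epcam or Cdh1. Krt8 at E11.5, Krt18 at E12.5, and Krt19 and Myrf at E10.5 were within 2.05-fold and so just past the limit.

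At D6 the direction of Upk3b was the other way when all cells of the classes were taken. It had 62.3 CPM in Sox9-positive and 20.2 in Pdgfra-positive cells (log2 ratio 1.63 [1.10, 2.16]), and Krt19 had 34.9 against 5.23 (2.74 [1.83, 3.72]). Krt8 (1.03, from 22 and 24 UMIs), Krt18 (1.499, from 14 and 11), and Lrrn4 (1.68, from 13 and 9) were called on few UMIs. In cells with Gata4 or Nr5a1 (131 and 161), Upk3b was at 0.66 and Krt8 at 0.18, both not called, while Krt19 was at 2.46. With no filter on cells, Krt8 (0.68) and Krt18 (0.52) were not called and Upk3b was at 1.21. After thinning, Myrf alone reached 20 UMIs, and it was lower (-1.51, against 0.08 at full depth). Thus 5 of 8 members tested were higher, where 5.83% of all genes were, and none was lower (4.96%). Within Lhx9-positive cells (37 and 102), Upk3b was at 1.82, Krt19 at 3.20, and Tmem151a at 1.41. Within Lhx9-positive cells in vivo, Upk3b was at -0.50 [-1.79, 0.78], 0.11 [-0.21, 0.42], and 0.57 [0.22, 0.90] from E10.5 to E12.5. There its direction at E12.5 was thus the same as at D6. The D6 classes hold 21 and 17 cells with Upk3b, and 5290 and 4575 UMIs per cell at the median.

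To see how the members go together, cells with at least 1 UMI of Upk3b were set against the others (311, 308, 257, and 186 cells, with medians of 9321, 13946.5, 14273, and 6605 UMIs, against 8089.5, 11543, 10754, and 4512). Tm4sf5 was in 4.18, 76.3, 71.2, and 44.1% of Upk3b-positive and in 0.454, 8.09, 3.31, and 1.57% of other cells. Krt19 had log2 ratios of 2.11, 3.76, 4.28, and 3.89 and Tmem151a of 2.58, 4.12, 4.78, and 3.71. Myrf (2.42, 2.69, 4.15, and 3.03) and Lrrn4 (3.11, 3.21, 3.48, and 5.18) were likewise higher in Upk3b-positive cells of every library. Krt18 was in 85.2% of Upk3b-positive and 30.2% of other cells at E10.5, with a log2 ratio of 2.01, and its ratios later were 1.55, 2.06, and 2.95. Krt7 was at -0.97 at E10.5 and at 3.47, 4.23, and 5.16 later. Its value at E10.5 depended on the setting. It was 1.21 without cells with Epcam or Cdh1, -1.52 with equal depth, -1.22 as a mean over cells, and -1.01 with TMM scaling. Krt8 had 1.09, 0.48, 0.50, and 2.10. Besides Upk3b, 7 of 8, 8 of 9, 8 of 9, and 8 of 8 members tested were higher by 2-fold or more, where 3.74, 3.85, 5.97, and 4.59% of all genes were. In this main setting no member was lower by 2-fold (8.76, 12.9, 14.5, and 11.8% of all genes were). With equal depth and Upk3b itself counted, 6 of 8, 8 of 9, 8 of 9, and 9 of 9 were higher, where 12.1, 6.61, 13.6, and 10.8% of all genes were. Krt7 alone was then lower, at E10.5 (7.09% of all genes were there).

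**Figure D4:**
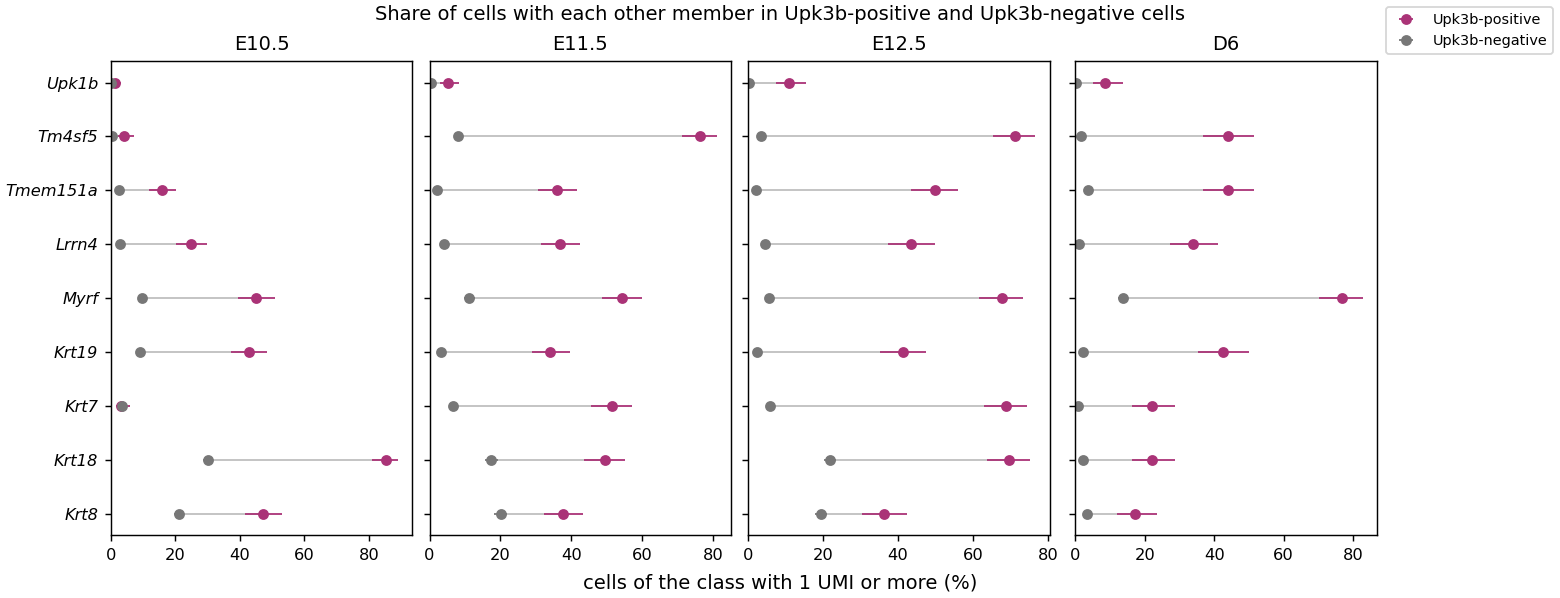
Share of Upk3b-positive and Upk3b-negative cells with at least 1 UMI of each other member, by library, with 95% intervals. Tm4sf5 is in 76.3% of Upk3b-positive cells at E11.5 and in 4.18% at E10.5, where Krt18 is in 85.2%.

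In single cells, Upk3b and Tm4sf5 were together in 235 cells at E11.5, 4.22 times the number that their shares would give if they were unrelated [3.70, 4.79]. This ratio was 7.40 [6.37, 8.55] at E12.5 and 8.76 [6.97, 10.9] at D6, and 4.24, 8.38, and 10.8 with equal depth. Such ratios describe the cells of 1 library each, which share its depth and its mix of cell types. At least 5 of the 10 members were in 83, 209, 212, and 75 cells (2.16, 9.95, 7.67, and 3.28%), and with equal depth in 3, 4, 6, and 12 (0.078, 0.211, 0.217, and 0.529%), where D6 came first and not E11.5. At full depth, 53.1, 48.3, 54.1, and 72.8% of cells held no member, and with equal depth 71.4, 74.9, 80.7, and 82.4% did.

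The keratins also differed in their mix. Krt18 made up 54.2% of the 8193 keratin UMIs of E10.5 and Krt19 made up 46.0% of the 661 of D6. At E12.5 there were 1.31 UMIs of Krt8 per UMI of Krt18 in Sox9-positive cells [1.16, 1.49], 0.60 in Pdgfra-positive cells [0.493, 0.729], and 0.347 in Upk3b-positive cells [0.285, 0.420]. Krt7 was the leading keratin of Upk3b-positive cells at E12.5, with 35.6% of their keratin UMIs, and Krt8 was that of Sox9-positive cells, with 48.2%. At E11.5 the Krt8 to Krt18 ratio was 1.38 [1.16, 1.64] in Sox9-positive and 0.591 [0.487, 0.716] in Upk3b-positive cells. It was 1.04 [0.803, 1.35] in Pdgfra-positive cells, which overlaps with Sox9-positive cells. At E10.5 it was 0.572 [0.499, 0.656] in Sox9-positive and 0.538 [0.479, 0.604] in Pdgfra-positive cells, intervals that overlap, and 0.340 [0.303, 0.379] in Upk3b-positive cells. That overlap held with cells with Epcam or Cdh1 counted. Without them, Krt8 was further below its level in Pdgfra-positive cells than Krt18 was (log2 ratios of Sox9- to Pdgfra-positive cells -2.16 and -1.19). At D6 it was 1.57, 2.18, and 0.912 in Sox9-, Pdgfra-, and Upk3b-positive cells, with intervals that overlapped. The ratio of UMIs of the neighbouring genes Krt8 and Krt18, whose upstream sequences are shown above, thus differed between some cell classes in vivo. Between others its intervals overlapped.

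**Figure D5:**
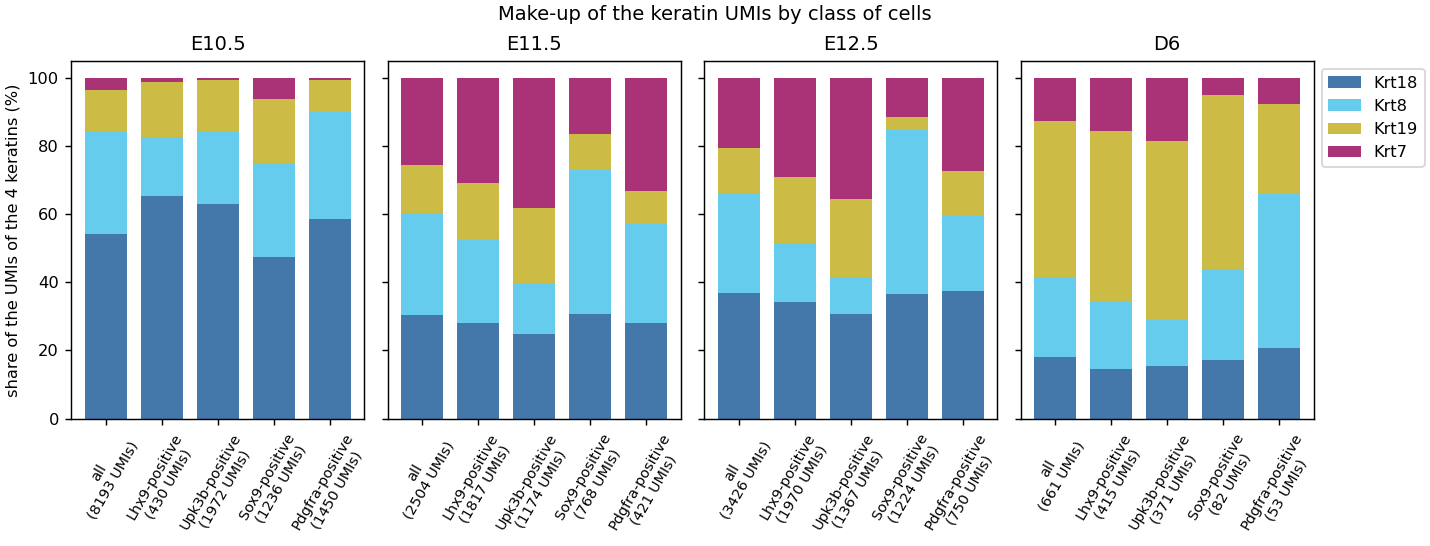
Share of the UMIs of Krt7, Krt8, Krt18, and Krt19 taken by each of them, in all cells and in Lhx9-, Upk3b-, Sox9-, and Pdgfra-positive cells of each library, with the total of keratin UMIs in the labels. Krt8 takes 48.2% in Sox9-positive and 10.6% in Upk3b-positive cells of E12.5.

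Genes related to the members were followed in Upk3b-positive cells by lists. Of all genes, 3.74, 3.85, 5.97, and 4.59% were higher there by 2-fold or more, and 8.76, 12.9, 14.5, and 11.8% were lower. Of 8 other mesothelial genes, 5 of 6, 5 of 7, 6 of 7, and 6 of 7 tested were higher. Among them Aldh1a2, which makes retinoic acid, was at 249 CPM in Upk3b-positive and 24.4 in other cells at E12.5, and Podxl, a sialomucin of cell surfaces, was at 84.2 and 9.23. Aldh1a1, a relative of Aldh1a2, was higher at E10.5 (log2 ratio 1.27, from 10 and 43 UMIs) and lower at E12.5 (log2 ratio -3.32) and D6 (-3.56). Msln, a mesothelial surface protein of adults, had 1 to 4 UMIs per library. Of 10 epithelial junction and splicing genes, 7 of 9 tested were lower in Upk3b-positive cells of each in vivo library, Epcam among them (-2.16, -1.41, and -2.36), and Cdh3, a cadherin, was the only one higher (1.56, 1.33, and 1.59, and 3.39 at D6). Germ cells, of which 3.11 and 0.891% had Upk3b in E11.5 and E12.5, held 83.4 and 95.7% of the Epcam UMIs there and 90.9 and 96.5% of those of Cdh1. Leaving germ cells aside, Upk3b was in more of the cells with Epcam or Cdh1 than of the others in these libraries, 32.6 against 14.5% and 25.2 against 9.96%, and at D6 in 21.9 against 7.96%. Of 8 genes of the gonadal progenitors, 5 of 8, 3 of 7, 4 of 8, and 3 of 8 tested were higher, and Lhx9, Emx2, and Tcf21, transcription factor genes of the early gonad, were higher in all 4. Nr5a1, on whose reporter the D6 cells were sorted, was lower in Upk3b-positive cells of D6 (74.4 against 171 CPM, log2 ratio -1.20). Krt14, a keratin of stratified epithelia, was higher at E11.5 (25.2 and 1.28 CPM) and E12.5 (30.5 and 1.15). Tmem98, which binds and restrains Myrf, was higher in all 4 libraries, with log2 ratios of 1.24, 1.57, 2.35, and 2.06.

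Over E11.5, E12.5, and D6, 4061 genes had at least 50 UMIs in the Upk3b-positive cells of each library, and they were ordered by the smallest of their 3 log2 ratios of Upk3b-positive to other cells. Tm4sf5 came first (3.95), and Krt19, Tmem151a, Krt7, and Lrrn4 were at ranks 3, 4, 5, and 7. Myrf was at rank 13, Krt18 at 40, and Krt8 at 199. Since the members were chosen with earlier results known, these ranks describe the list and do not test it. The first 10 genes that were no members were Crb2 (3.92), which acts in epithelial polarity, Myl7 (3.47), a myosin light chain best known from the heart atrium, Ildr2 (3.17), Nxph3 (3.01), Aldh1a2 (2.89), Sv2a (2.76), Stk26 (2.72), Arhgap22 (2.53), Tmem108 (2.46), and Net1 (2.10). Myl7 was the most abundant of these in vivo, with 446 CPM in Upk3b-positive and 19.1 in other cells at E12.5.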

How the data were processed

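The UMI counts of each gene and cell are as the authors deposited them, without normalization, made with Cell Ranger on mm10 (version 3.0.2 per the processing notes and methods, 6.0.0 per the file headers). The counts were checked to be whole numbers. The limits on cells were those of the methods: a minimum of 1000, 500, 2000, and 1000 genes, a maximum of 4000, 5000, 5000, and 4000, and mitochondrial UMIs (13 genes) under 10, 20, 8, and 12% for E10.5, E11.5, E12.5, and D6. UMIs were summed over cells and scaled by total UMIs. Intervals are exact Poisson, binomial (Clopper-Pearson), or conditional ones at 95%. Genes needed 20 UMIs in the groups compared, and a group at 0 was set to 3 counts. A cell was put in a class with at least 3 of 6 markers of that class. Doublets by Scrublet (158, 18, 27, and 45 cells) were left in. At E11.5 and E12.5 they were called by its threshold. At E10.5 and D6 they were the cells with the highest scores, their number set by an expected rate (3.58 and 1.95%). The members, the gene lists, and the markers were chosen with earlier results of these data known. The genes named are the members, Lhx9, Sox9, and Pdgfra, genes of the related lists, and the 10 genes most like Upk3b by the rule in the text. The ratio step was tried on simulated data for Sox9- and Pdgfra-positive cells of E12.5, with 200 changed among 12269 genes. All of the 200 (100%) had the right direction, 98% were called, and 0.845% of unchanged genes were called. Whether these rates hold for ratios near 2-fold, for few UMIs, or in other libraries was not tested. Alternatives were other cell filters, doublets or other cell types left out, 2 UMIs for a positive cell, thinning to 2000 UMIs, means over cells, and scaling by TMM (edgeR 4.0.16 in R 4.3.3) or median of ratios. Gene positions are from GENCODE on GRCm38. Other steps used scanpy 1.11.5, matplotlib 3.10.9, pandas 2.3.3, scipy 1.17.1, and numpy 2.4.6 in Python 3.11.15.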

Additional observations from a re-analysis of the deposited data

How the results depend on the processing

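No paired analysis was possible because each condition has 1 library, so that no conditions share 2 replicate numbers, and no result comes from a test. Cell classes were compared within each library, and a test over the 4 libraries, which are 4 conditions, was not run. Of 824 ratios recomputed for members called in the main setting, 815 kept their sign and 773 stayed past 2-fold, and 149 recomputed counts stayed within 1.5 times while 31 did not. The number of members in at least 10% of cells (4, 6, 4, and 1 in E10.5, E11.5, E12.5, and D6) was 2, 1, 1, and 0 with 2 UMIs for a positive cell and 2, 0, 0, and 0 after thinning. The number of members called between Sox9- and Pdgfra-positive cells was 3, 1, 7, and 5, where 704 of 11406, 2282 of 11821, 2998 of 12257, and 1146 of 10625 genes were. The number of members was 1, 0, and 3 at E10.5, E11.5, and D6 without a cell filter (756 of 11922, 2113 of 12249, and 1128 of 11085 genes). It was 1 at E10.5 with the same filter for all libraries (752 of 11775 genes). After thinning it was 0, 2, and 1 at E10.5, E12.5, and D6, where fewer members reached 20 UMIs (316 of 5613, 1500 of 6941, and 749 of 6380 genes). With means over cells, and with cells positive for both genes counted in both classes, it was 1 at E10.5 and 0 at E11.5. With both-positive cells counted in both classes, 502 of 11829 and 1202 of 12484 genes were called there. Means over cells were taken for the members alone, so that no share of all genes goes with them. In cells with Gata4 or Nr5a1 the number of members was 1, 3, and 1 at E10.5, E11.5, and D6 (305 of 5367, 2428 of 11256, and 1068 of 8959 genes). With 2 UMIs for a positive cell it was 4 at E11.5 and 1 at D6 (2689 of 11028 and 1304 of 8332 genes). In Lhx9-positive cells it was 1, 1, and 3 at E10.5, E12.5, and D6, where 189 of 3832, 1127 of 10989, and 562 of 6123 genes were called. In Lhx9-negative cells it was 5, 2, 3, and 1, where 728 of 11316, 2961 of 10422, 2968 of 11061, and 1333 of 10176 genes were. Without cells with Epcam or Cdh1, the members called at E10.5 were Krt8, Krt18, and Myrf, and no longer Krt7 and Krt19 (596 of 11133 genes). The settings by Lhx9 and those without cells with Epcam or Cdh1 were added after the data had been seen. The sign turned for Krt7 between Lhx9-positive and -negative cells of E10.5, from -1.56 to 0.27 without cells with Epcam or Cdh1 and to 0.82 after thinning, where the 84 Lhx9-positive cells held 0 UMIs and the value comes from the 3 counts set in their place. It turned for Krt19 between Sox9- and Pdgfra-positive cells of E10.5 (-0.24 without cells with Epcam or Cdh1). It turned at E12.5 in Lhx9-positive cells for Upk3b (0.57), Tm4sf5 (0.50), Tmem151a (0.13), Myrf (0.069), and Lrrn4 (0.52), and in Lhx9-negative cells for Myrf (0.31). Where no construction is named, the cause was not tested. Members with few UMIs, Upk1b in each library and Tm4sf5 at E10.5, and the classes of D6 limit what can be read from single ratios.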
